A study of Homo sapiens with 8 samples.

Results

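The EGFR (ERBB) family of receptors and its ligands was followed through a pooled knockout screen in cells treated with EGFR kinase inhibitors. The members were the rows of the deposited count table whose gene was EGFR, ERBB2, ERBB3 or ERBB4 (receptors) or EGF, TGFA, AREG, EREG, HBEGF or BTC (ligands). Of these 10 genes, 9 had single guide RNAs (sgRNAs) in the table, 36 in all, against 17761 genes tested over the whole library. AREG had no row and was not analysed here. In all, 34 of the 36 guides had enough reads to be kept, with 4 guides for each of 7 genes and 3 each for ERBB2 and TGFA.

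ERBB receptors are receptor tyrosine kinases that pair on the cell surface, phosphorylate each other and recruit adaptors that start RAS-MAPK, PI3K-AKT and PLC-gamma signaling. EGFR binds EGF, TGFA, amphiregulin (AREG), EREG, HBEGF and BTC; ERBB3 and ERBB4 bind neuregulins; ERBB2 has no known ligand and acts as a partner of the others, while ERBB3 has very weak kinase activity and binds PI3K when phosphorylated. Activating mutations of EGFR in lung cancer drive growth without a need for ligand and make cells sensitive to EGFR kinase inhibitors.

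PC9 is a non-small cell lung cancer line with an activating EGFR mutation. All 8 libraries came from PC9 cells that expressed the Cas9 nuclease and carried TKOv3, a genome-wide sgRNA library. They form 4 groups of 2, namely cells at the start of treatment (T0), cells given vehicle for 72 h (untreated), and cells given 10 µM erlotinib or 0.1 µM osimertinib for 72 h. Untreated cultures were passaged during the experiment, and the cells collected at its end were live ones, per the methods. Neither the labels nor the methods say whether the cultures of a group stayed apart after infection, so p-values measure the spread between these libraries, part of which may be technical. The methods give the number of cells infected by treatment condition. Whether the groups differed through infection was not tested. Libraries held 32093833 to 39197691 reads, and the median guide had 445 to 549 reads.

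The share of reads of a guide stands for the share of cells that carry that knockout. A lower share can follow from slower division or from more death, and the counts cannot tell these apart. Values are given as log2 fold changes (L2FC) relative to the non-targeting guides, which match no site in the genome. Single guides were tested with edgeR, and genes with limma on the median of their guides in each library. A call means an adjusted p below 0.05 over all guides or all genes of the comparison. Guides of a gene share a target and are not replicates of a condition. Guides are numbered by their order in the table.

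After 72 h without drug, EGFR knockout cells had fallen by 0.92 on the log2 scale from their T0 share relative to non-targeting guides, the largest loss among the 9 members. ERBB2, ERBB3, ERBB4, TGFA, EREG and BTC were also called lower than at T0, with L2FC between -0.16 and -0.33. HBEGF (L2FC -0.17, adjusted p = 0.0521) and EGF (0.03, adjusted p = 0.681) were not called. Relative to non-targeting guides, 7 of 9 members were called lower, where 44.8% of all genes were called lower and the median gene had an L2FC of -0.16. None of the 9 was called higher, against 0.045% of all genes. At an unadjusted p below 0.05 none was higher either, and the share of all genes past that cut was not counted. When libraries were scaled by TMM over all guides, which sets the typical targeting guide to 0 and moves all genes up by 0.17, EGFR was the 1 member called lower, against 9.59% of all genes. With non-targeting guides, 4 members were called lower without T0 replicate 2, untreated replicate 1 or untreated replicate 2, with EGFR and ERBB3 called in each case.

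EGFR guides were already scarce at T0. Guide 1 had normalized counts of 117 and 116 in the T0 libraries and 32 and 60 in the untreated ones. Under erlotinib it had 69 and 73, and under osimertinib 78 and 91. Guide 4, the most abundant, went from 374 and 415 reads at T0 to 222 and 218 without drug, 328 and 339 with erlotinib and 366 and 330 with osimertinib. Both guides were lowest in the untreated libraries, with no overlap between untreated and any other group. The untreated libraries were also lowest for guide 2, with counts of 142 and 153 after 293 and 257 at T0, beside 200 and 204 with erlotinib and 186 and 224 with osimertinib. Guide 3 had 136 and 124 without drug after 232 and 227 at T0, beside 156 and 158 with erlotinib and 165 and 186 with osimertinib. In mean normalized count at T0, 2.17% of all targeting guides kept were below guide 1, 9.92% below guide 2, 6.67% below guide 3 and 22.7% below guide 4, and the median targeting guide had 566. What the guides' shares were before infection was not measured in these libraries.

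**Figure D1:**
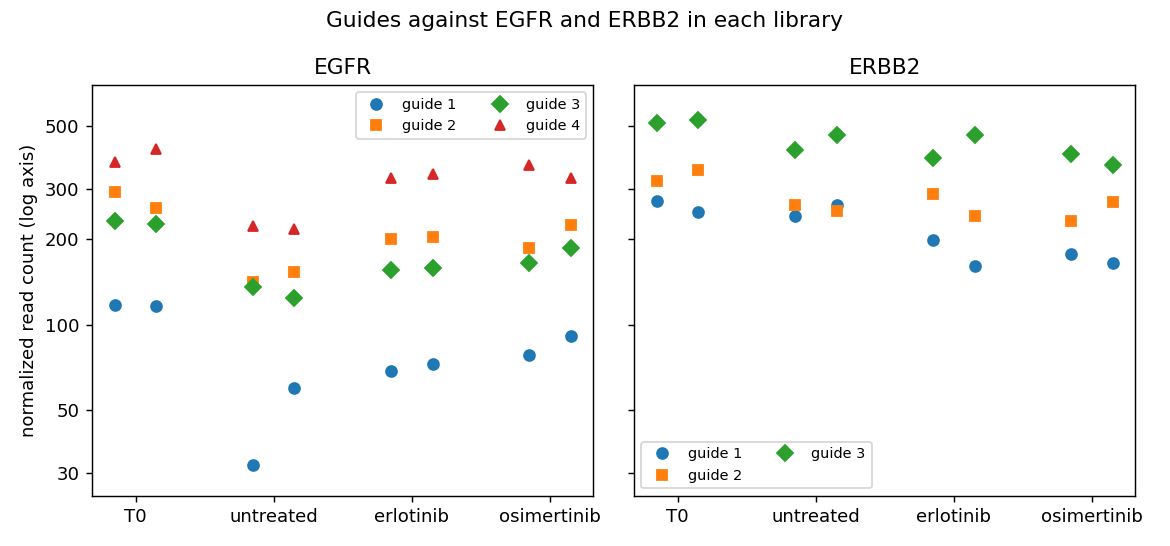
Normalized read count (log axis) of each kept guide against EGFR (left) and ERBB2 (right) in the 2 libraries of each group; each point is 1 guide in 1 library. All 4 EGFR guides sit lowest in the untreated libraries, and ERBB2 guide 1 sits lowest under the drugs.

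From T0 to untreated, the L2FC of the EGFR guides was -1.33 ± 0.29 (SE) for guide 1, -0.90 ± 0.19 for guide 2, -0.82 ± 0.20 for guide 3 and -0.84 ± 0.15 for guide 4. All 4 were called lower, where 20.1% of targeting guides were, and all 4 were also called lower with TMM over all guides, where 5.93% were. By gene, EGFR had levels of -0.96 and -0.87 in the untreated libraries relative to the mean of the T0 libraries, which stood at 0.04 and -0.04. Its L2FC was -0.92 ± 0.07 (SE, 2 libraries a group, adjusted p = 1.4e-08) and only 2.18% of all genes had a lower value. The 10 tested genes next to EGFR on its chromosome, 5 on each side in RefSeq order (GRCh38.p14), had a median L2FC of -0.15 and ranged from -0.30 to -0.02. Of these neighbours, GRB10 (-0.22), VSTM2A (-0.26) and SEC61G (-0.30) were called lower. Relative to the neighbours' median in each library, a comparison chosen after seeing the data, EGFR still had an L2FC of -0.77 (adjusted p = 8.09e-07).

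ERBB3 was second among the members in the loss without drug. Its levels were -0.35 and -0.32 in the untreated libraries against 0.06 and -0.06 at T0, an L2FC of -0.33 ± 0.07 (adjusted p = 8.28e-04), and guides 2 and 4 were called lower of the 4 guides. ERBB2 had levels of -0.30 and -0.16 in untreated (L2FC -0.23 ± 0.07, adjusted p = 0.0141) and none of its 3 guides was called; at an unadjusted p below 0.05, guide 2 passed. ERBB4, which also transmits neuregulin signals, had levels of -0.18 and -0.14 (L2FC -0.16 ± 0.06, adjusted p = 0.0493), the same as the median gene. None of these calls remained with TMM over all guides (adjusted p = 0.141, 0.682 and 0.946), nor relative to the neighbours' median in each library (adjusted p = 0.407, 0.74 and 0.776).

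The ligand knockouts lay between 0.03 and -0.28 without drug. EREG (epiregulin) had levels of -0.19 and -0.38 in untreated against 0.09 and -0.09 at T0, an L2FC of -0.28 ± 0.09 (adjusted p = 0.0144). BTC (betacellulin), which also activates ERBB4, had levels of -0.23 and -0.31 and an L2FC of -0.27 ± 0.06 (adjusted p = 0.00342). The untreated libraries were below the T0 libraries for both genes, with no overlap. The same held for the median over all genes, which was -0.16 and -0.17 in the untreated libraries. How many single genes separate in this way was not counted. TGFA, a ligand of EGFR alone, had an L2FC of -0.18 ± 0.07 (adjusted p = 0.0437), and HBEGF, released from a membrane-bound form, -0.17 ± 0.07. Both values were close to that of the median gene. EGF knockout cells had levels of 0.01 and 0.06, and 97.6% of all genes had a lower L2FC. By guide, EGF ranged from -0.17 to 0.02 with a median of -0.02, and 3 of 4 guides were below 0. EREG and BTC lie within 5 tested genes of each other, and the neighbours of EREG had a median L2FC of -0.18. The calls for EREG, BTC and TGFA were lost with TMM over all guides, with L2FC of -0.11, -0.10 and -0.01.

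**Figure D2:**
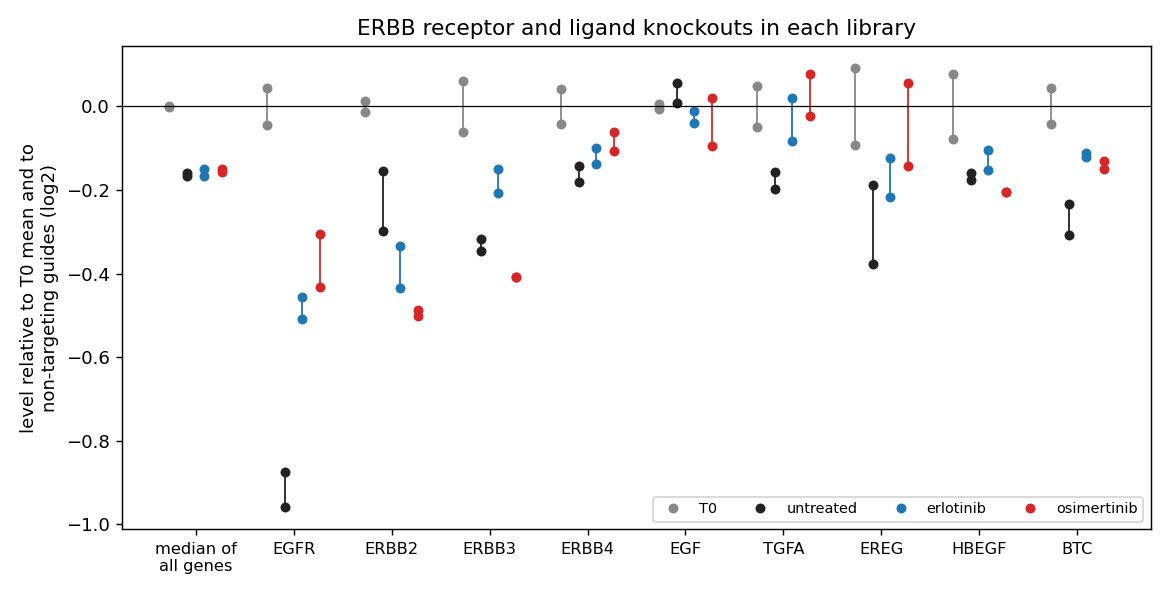
Level of each member's knockout in each library (log2, relative to non-targeting guides and to the mean of the T0 libraries), with the median over all genes at the left; each point is 1 library and lines join the 2 libraries of a group. EGFR levels of -0.96 and -0.87 in untreated are the lowest shown, and ERBB2 is lowest under osimertinib at -0.49 and -0.50.

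The next question was how each knockout fared under drug relative to untreated cultures. EGFR knockout cells held a larger share under each drug than in untreated cultures, by 0.43 under erlotinib and 0.55 under osimertinib on the log2 scale. ERBB2 knockout cells were called lower under osimertinib. No other receptor and no ligand was called under either drug. The drugs were given at different doses, and both comparisons share the untreated libraries, so their values are set side by side without a comparison of the drugs.

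Under erlotinib 1 of 9 members was called higher, against 4.5% of all genes, and none was called lower, against 2.58% of all genes. At an unadjusted p below 0.05, 1 member, ERBB2, was lower by limma and 4, EGFR, ERBB3, TGFA and BTC, were higher. The share of all genes past that cut was not counted. EGFR levels were -0.51 and -0.46 under erlotinib, both above the untreated libraries. Its L2FC against untreated was 0.43 ± 0.07 (95% confidence interval 0.29 to 0.58, adjusted p = 6.48e-04), and 1.09% of all genes had a higher value. The 4 guides ranged from 0.28 to 0.61 and guide 4 was called higher, as was BTC guide 2 (0.40 ± 0.10, adjusted p = 0.0078), where 1.89% of targeting guides were called higher. Neither guide call held without either untreated library or without erlotinib replicate 2. The neighbours of EGFR had a median of -0.07, and SEC61G, which encodes a subunit of the protein translocation channel, was called lower (-0.45).

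Under osimertinib 1 of 9 members was called higher, against 5.3% of all genes, and 1 was called lower, against 5.04%. EGFR levels were -0.43 and -0.31, again above both untreated libraries, an L2FC of 0.55 ± 0.07 (0.40 to 0.69, adjusted p = 7.57e-05), and 0.253% of all genes had a higher value. The 4 EGFR guides ranged from 0.44 to 0.87 and guide 4 was the 1 member guide called higher, where 2.66% of targeting guides were. The neighbours of EGFR had a median of -0.04, and SEC61G was called lower (-0.41). Relative to those neighbours, EGFR was higher than in untreated by 0.52 under erlotinib and by 0.60 under osimertinib (adjusted p = 4.18e-04 and 1.32e-04).

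Because EGFR knockout cells were depleted in untreated cultures, their levels under drug were set beside those of other genes with a like depletion, a description chosen after seeing the data. In all, 251 genes had an untreated level within 0.1 of that of EGFR. Under erlotinib the middle 50% of these genes lay between -0.93 and -0.55 with a median of -0.73, EGFR was at -0.48, and 81.3% of the genes were below it. Under osimertinib the middle 50% lay between -1.02 and -0.72 with a median of -0.89, EGFR was at -0.37, and 97.2% were below it. EGFR was thus nearer to its T0 level than most of these genes under both drugs.

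Over the 6 libraries at 72 h, the genes whose levels were most like those of EGFR among 17760 were SBNO1, POLR1E (a subunit of RNA polymerase I), TBP (the TATA-binding protein), CTR9 (a subunit of the PAF1 transcription elongation complex) and DDX59. Their root mean square distances to EGFR were 0.075, 0.076, 0.091, 0.092 and 0.106 on the log2 scale. The median over all genes was 0.507, and these genes lie below it by the way they were picked. SBNO1, the nearest, had levels of -0.89 and -0.77 in untreated, -0.42 and -0.40 with erlotinib and -0.39 and -0.23 with osimertinib.

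ERBB2 moved the other way. Its levels were -0.30 and -0.16 in untreated, -0.33 and -0.43 with erlotinib and -0.49 and -0.50 with osimertinib, and both osimertinib libraries were below both untreated libraries. The L2FC against untreated was -0.27 ± 0.07 under osimertinib (-0.41 to -0.12, adjusted p = 0.0195) and -0.16 ± 0.07 under erlotinib (-0.30 to -0.01, adjusted p = 0.202), where it was -0.05 without untreated replicate 2 (adjusted p = 0.841). Guide 1 had normalized counts of 242 and 265 in untreated, 199 and 161 with erlotinib and 178 and 165 with osimertinib. Guide 2 had 265 and 251, 290 and 241, and 232 and 270 in the same order, and guide 3 had 414 and 467, 387 and 467, and 400 and 367. The guides thus differed, with an L2FC under osimertinib of -0.56 ± 0.18 for guide 1, -0.04 ± 0.16 for guide 2 and -0.20 ± 0.13 for guide 3, and none was called on its own (guide 1, adjusted p = 0.0506).

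The ERBB2 call under osimertinib did not hold in several settings. It was lost without untreated replicate 2 (-0.14, adjusted p = 0.378), without osimertinib replicate 1 (adjusted p = 0.0809) or 2 (adjusted p = 0.0706), and when guides with few reads were kept, which adds guide 4 with 13 to 29 normalized reads a library (-0.12, adjusted p = 0.273). The neighbours of ERBB2 had a median L2FC of -0.13 under osimertinib, and PGAP3 (-0.26) and GRB7 (-0.26), an adaptor that binds ERBB2, were called lower too. Relative to the neighbours' median ERBB2 was at -0.15 (adjusted p = 0.324).

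ERBB3 levels were -0.35 and -0.32 in untreated, -0.21 and -0.15 with erlotinib and -0.41 and -0.41 with osimertinib. The erlotinib libraries were above, and the osimertinib libraries below, both untreated libraries, yet neither difference was called. The L2FC against untreated was 0.15 ± 0.07 (0.01 to 0.29, adjusted p = 0.194) and -0.08 ± 0.07 (-0.22 to 0.06, adjusted p = 0.498). The neighbours of ERBB3 had a median of 0.12 under erlotinib. ERBB4 was at 0.04 ± 0.06 and 0.08 ± 0.06 against untreated, with intervals of -0.09 to 0.18 under erlotinib and -0.06 to 0.21 under osimertinib.

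Among ligands, BTC had the largest L2FC against untreated under erlotinib and EREG, followed by TGFA, under osimertinib. EREG levels were -0.19 and -0.38 in untreated, -0.22 and -0.12 with erlotinib and -0.14 and 0.06 with osimertinib, so the erlotinib libraries overlapped the untreated ones. Its L2FC against untreated was 0.11 ± 0.09 (adjusted p = 0.509) and 0.24 ± 0.09 (adjusted p = 0.0853). The mean over guides in place of the median gave 0.30 under osimertinib (adjusted p = 0.0283), and without osimertinib replicate 1 EREG was at 0.35 (adjusted p = 0.0357). Guide 4 of EREG, the scarcest guide with 116 and 86 normalized reads at T0, had the largest L2FC, 0.82 ± 0.28 under each drug, and was not called under either (adjusted p = 0.106 and 0.0696).

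TGFA levels were -0.16 and -0.20 in untreated, -0.08 and 0.02 with erlotinib and 0.08 and -0.02 with osimertinib, with both drugs above untreated. The L2FC was 0.15 ± 0.07 under erlotinib (adjusted p = 0.239) and 0.21 ± 0.07 under osimertinib (adjusted p = 0.0662), and the latter passed without erlotinib replicate 2 (0.23, adjusted p = 0.0379) and when guides with few reads were kept (0.25, adjusted p = 0.0383). The 10 genes next to TGFA had a median of 0.15 under erlotinib, where 2 were called higher, and 0.22 under osimertinib, where 7 were called higher. They ranged from -0.19 to 0.26 and from -0.17 to 0.34. Relative to that median, TGFA was at -0.01 and -0.04.

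BTC was at 0.15 ± 0.06 under erlotinib (0.02 to 0.29, adjusted p = 0.182) and 0.13 ± 0.06 under osimertinib (-0.01 to 0.27, adjusted p = 0.22), and its neighbours, which include EREG, had medians of 0.10 and 0.11. EGF was at -0.06 ± 0.06 and -0.07 ± 0.06, and HBEGF at 0.04 ± 0.07 and -0.04 ± 0.07. By guide, 3 of 4 EGF guides were above 0 under erlotinib, against the sign of the gene value, and 3 of 4 were below 0 under osimertinib.

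**Figure D3:**
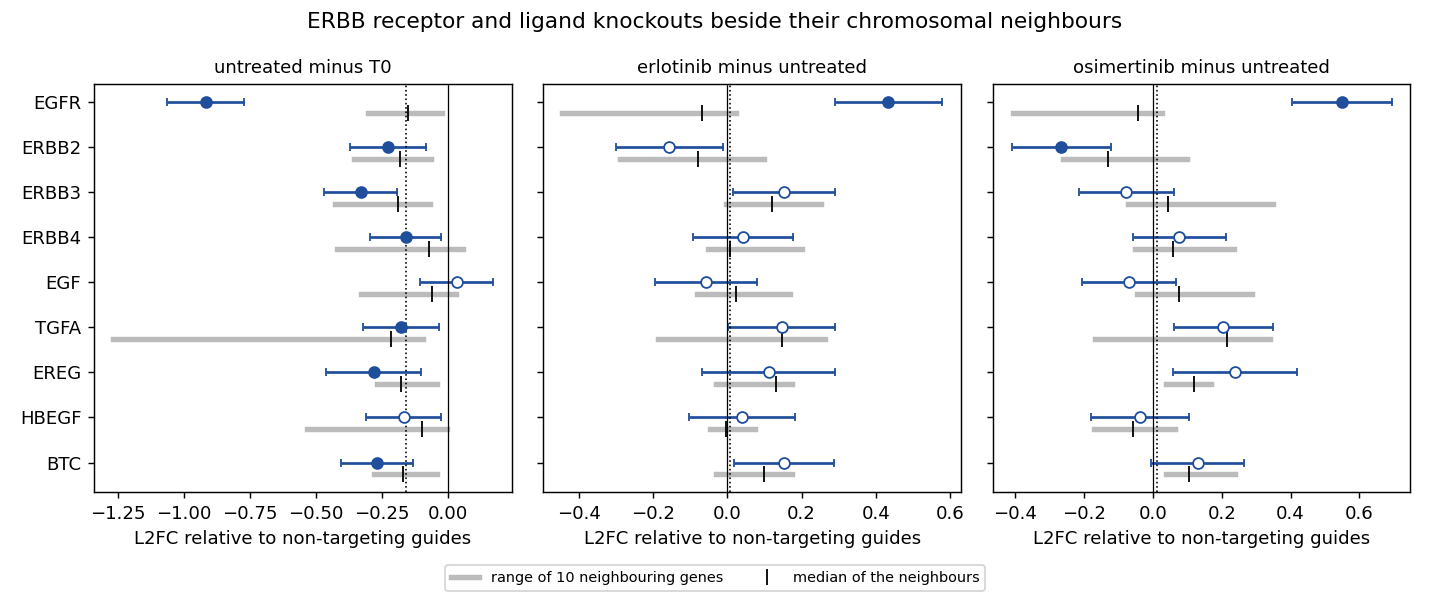
L2FC of each member (blue, filled where called, bars show the 95% confidence interval) for untreated against T0 and each drug against untreated, with the range (grey) and median (tick) of the 10 neighbouring genes and the median of all genes (dotted line). EGFR lies outside the range of its neighbours in all 3 panels, and TGFA lies close to the median of its neighbours under both drugs.

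Set against T0, which asks whether a knockout was lost over the whole treatment, EGFR, ERBB2 and ERBB3 were called lower under both drugs. Both comparisons share the T0 libraries, and the median gene was at -0.16 under erlotinib and -0.15 under osimertinib. Under erlotinib 3 of 9 members were called lower, where 43.8% of all genes were, and none higher, where 0.293% were; none was higher at an unadjusted p below 0.05 either. Under osimertinib 4 of 9 were called lower, the fourth being HBEGF (-0.21 ± 0.07, adjusted p = 0.0204), where 43.7% of all genes were, and none higher, where 1.08% were; none was higher at an unadjusted p below 0.05. EGFR was at -0.48 ± 0.07 (adjusted p = 3.58e-05) under erlotinib and -0.37 ± 0.07 (adjusted p = 3.77e-04) under osimertinib. ERBB2 was at -0.38 ± 0.07 (adjusted p = 3.24e-04) and -0.49 ± 0.07 (adjusted p = 1.92e-05). ERBB3 was at -0.18 ± 0.07 (adjusted p = 0.0361) and -0.41 ± 0.07 (adjusted p = 8.84e-05). Under erlotinib ERBB3 was close to the median gene, and limma did not call it with TMM over all guides (adjusted p = 0.911). HBEGF under osimertinib was not called with that scaling either (adjusted p = 0.695). The ERBB3 call under erlotinib was lost without erlotinib replicate 1 (adjusted p = 0.185) or T0 replicate 1 (adjusted p = 0.253), and the HBEGF call without either osimertinib library (adjusted p = 0.0703 and 0.0517) or T0 replicate 1 (adjusted p = 0.23).

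With TMM over all guides, 2 members, EGFR and ERBB2, were called lower than at T0 under erlotinib, against 10.3% of all genes. Under osimertinib EGFR, ERBB2 and ERBB3 were called lower, against 15% of all genes, and TGFA higher (0.19, adjusted p = 0.05 after rounding), against 8.36%. Relative to their neighbours, EGFR was at -0.25 (adjusted p = 0.0537) under erlotinib and -0.17 (adjusted p = 0.18) under osimertinib, and ERBB2 at -0.13 (adjusted p = 0.419) and -0.22 (adjusted p = 0.069), none of which was called. ERBB3 was called lower relative to its neighbours under osimertinib and not under erlotinib. By guide, 3 of 34 member guides were called lower under erlotinib, against 19.2% of targeting guides, and none without T0 replicate 1. Under osimertinib 8 of 34 were called lower, among them all 3 ERBB2 guides (-0.60, -0.42 and -0.44) and no EGFR guide, against 23.5% of targeting guides. The count was 2 without T0 replicate 1 and 4 without T0 replicate 2.

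The remaining genes around these receptors were taken in 5 groups. The groups were chosen with earlier results of these data known. Their counts beside the shares of all genes therefore describe the listed genes and do not test a group. Of the other ERBB ligands, EPGN and the neuregulins NRG1 to NRG4, none of 5 was called under either drug against untreated by limma. Of all genes, 4.5% were called higher and 2.58% lower under erlotinib, and 5.3% and 5.04% under osimertinib. In each comparison 1 of the 5 was higher, and none lower, at an unadjusted p below 0.05. The share of all genes past that cut was not counted, here or for the next group. Of 4 genes that release ligands from the cell surface, 2 were called higher under osimertinib, against 5.3% of all genes. They were ADAM10, a sheddase (0.24 ± 0.06, adjusted p = 0.0214), and RHBDF1, a pseudoprotease that regulates the sheddase ADAM17 (0.26 ± 0.07, adjusted p = 0.0181). ADAM17 itself was at 0.23 ± 0.08 (adjusted p = 0.0621, 2 guides). Under erlotinib none of the 4 was called, and 2 were higher at an unadjusted p below 0.05. The median of the 4 was 0.24 under osimertinib and 0.13 under erlotinib, beside 0.01 for all genes in both.

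Of 7 adaptors and first effectors, 2 were called higher than untreated under erlotinib, against 4.5% of all genes, and 3 under osimertinib, against 5.3%. Their medians were 0.18 and 0.13, beside 0.01 for all genes in both. At an unadjusted p below 0.05 by limma, 4 were higher under erlotinib and 3 under osimertinib, and 1, SOS2, was lower under each. The share of all genes past that cut was not counted. SOS2 was at -0.22 ± 0.07 and -0.20 ± 0.07, and was called lower under erlotinib with TMM over all guides (adjusted p = 0.0491). PLCG1, the phospholipase that binds phosphorylated EGFR, was at 0.35 ± 0.07 (adjusted p = 0.00347) and 0.52 ± 0.07 (adjusted p = 1.15e-04), and against T0 it was called higher under both drugs as well (0.28 and 0.45). GAB1, a docking protein for PI3K and the phosphatase PTPN11, was at 0.39 ± 0.07 and 0.27 ± 0.07 (adjusted p = 0.00168 and 0.0192). SHC1, an adaptor that brings GRB2 to the receptor, was called higher under osimertinib (0.34 ± 0.07, adjusted p = 0.00523). Against T0, neither GAB1 (0.11 and -0.01) nor SHC1 (-0.07 and 0.06) was called under erlotinib or osimertinib. With TMM over all guides GAB1 was called higher than at T0 under erlotinib (0.28) and SHC1 under osimertinib (0.22). GRB2 knockout cells were lost without drug (-0.66 ± 0.10 from T0 to untreated, adjusted p = 9.46e-05) and were at 0.07 ± 0.10 and -0.06 ± 0.10 under the drugs against untreated. Without drug 5 of the 7 were called lower than at T0, against 44.8% of all genes, and 1 of the 7, GRB2, with TMM over all guides, against 9.59%.

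Of 8 genes that lower receptor activity or sort the receptors, 1 was called under each drug, in both cases lower, against 2.58% of all genes called lower under erlotinib and 5.04% under osimertinib. ERRFI1 (MIG6), a direct inhibitor of the EGFR kinase, was lower by -0.27 ± 0.08 under erlotinib (adjusted p = 0.038) and -0.46 ± 0.08 under osimertinib (adjusted p = 9.81e-04). Knockout of USP8, a deubiquitinase of the endosome, was depleted from T0 to untreated by -0.89 ± 0.07 (adjusted p = 4.04e-08), close to EGFR, but was at -0.04 ± 0.07 and -0.06 ± 0.07 under the drugs against untreated.

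Of 5 other receptor tyrosine kinases, 3 were called lower than untreated under erlotinib, against 2.58% of all genes, and 2 under osimertinib, against 5.04%. FGFR1 was at -0.94 ± 0.07 (adjusted p = 2.81e-07) and -0.64 ± 0.07 (adjusted p = 1.99e-05), and AXL at -0.29 ± 0.07 (adjusted p = 0.0154) and -0.63 ± 0.07 (adjusted p = 2.6e-05). IGF1R was called under erlotinib (-0.25 ± 0.06, adjusted p = 0.0244). Without drug FGFR1 was at -0.11 ± 0.07 against T0 (adjusted p = 0.186). FGFR1 and AXL knockouts thus changed in the direction opposite to EGFR under both drugs.

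**Figure D4:**
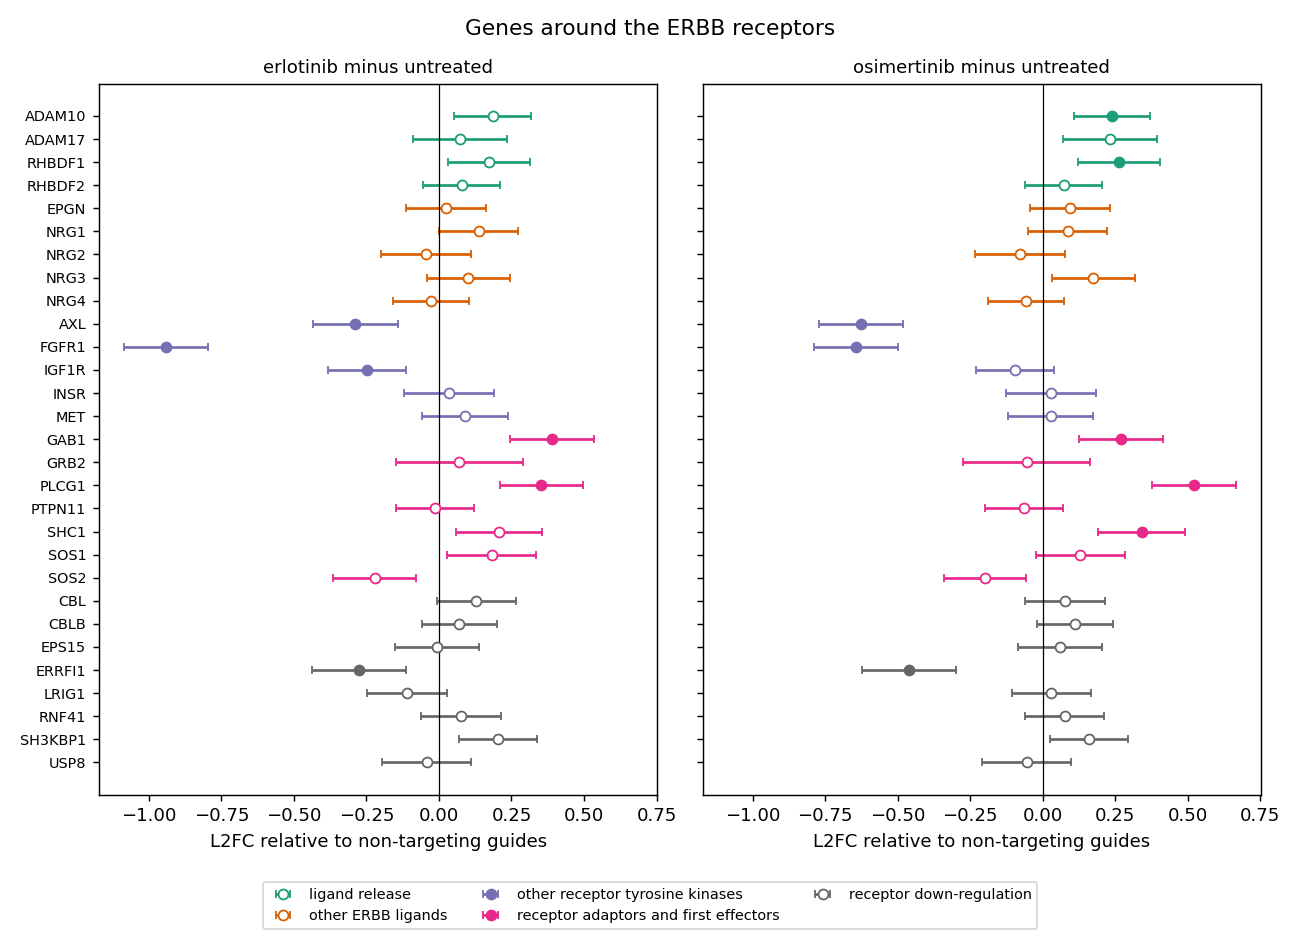
L2FC against untreated of 29 genes around the ERBB receptors under erlotinib (left) and osimertinib (right), coloured by group, with 95% confidence intervals; filled points were called. FGFR1, AXL and ERRFI1 lie to the left under both drugs, and GAB1 and PLCG1 to the right.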

How the data were processed

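The authors deposited raw, not normalized, read counts per sgRNA and library. The labels and methods state that sgRNA inserts were amplified from genomic DNA by PCR, trimmed and mapped to the TKOv3 library with 1 mismatch allowed. The methods mention no molecular identifiers. The methods name Bowtie2 as the aligner, whereas the submitters' processing notes list Bowtie 1.3.1. PCR copies are not independent molecules, so read depth limits counting error only.

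The table held 71090 guides. Of 50 gene names that a spreadsheet had altered, 49 were restored and 1, with 4 guides, was left out. The lowest 5% of guides by mean normalized count were removed, which left 67531, of which 138 were non-targeting. Library sizes were scaled by TMM on the non-targeting guides. Guides were tested with the quasi-likelihood test of edgeR 4.0.16 in R 4.3.3, on all 8 libraries with no covariate. The SE given for a guide was derived from that test, as the absolute L2FC over the square root of its F statistic. For genes with at least 2 guides kept, log2 values with a prior count of 1 were centred by guide, the median over guides was taken in each library, and groups were compared with limma 3.58.1. P-values were adjusted by the Benjamini-Hochberg procedure over all 17761 genes or all guides. The study drew its gene p-values from non-targeting guides; limma was used here so that the error is the spread between libraries. The script was tested on simulated data.

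All members were described in each comparison, each kept guide was tested, up to 3 called genes of a group with the largest values were named, and neighbouring genes were named only where called in a comparison in which the member was called. GRB2, SOS2, ADAM17, USP8 and FGFR1 without drug were added after their values were seen. Members and gene groups were chosen with earlier results of these data known. Alternatives were TMM over all guides, olfactory receptor guides as the reference, no filter, the mean over guides, a prior count of 5, the median of guide values, DESeq2 1.42.0, the replicate number as a block and each library left out. Gene names were matched to RefSeq (GRCh38.p14) for the order of neighbours, 17967 of 18052 names. A further osimertinib dose was not analysed here.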

Additional observations from a re-analysis of the deposited data

How the results depend on the processing

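EGFR kept its direction and its call in all 5 comparisons in every test with another scaling, filter, summary or block and with each library left out, except relative to neighbours. With each library left out, its L2FC against untreated ranged from 0.37 to 0.50 under erlotinib and from 0.48 to 0.62 under osimertinib. The median of guide values from edgeR, which has no test, gave EGFR 0.53 under erlotinib. Relative to the neighbouring genes, chosen after seeing the data, EGFR was not called against T0 under erlotinib (-0.25) or osimertinib (-0.17).

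Counts of members called depended mainly on the scaling. From T0 to untreated, 7 members became 1 with TMM over all guides, 2 with olfactory receptor guides as the reference and 1 relative to neighbours. Of all genes, 44.8% were called lower in the main setting, 9.59% with TMM over all guides and 1373 of 17684 relative to neighbours. The share with olfactory receptor guides was not counted. Relative to neighbours 1 member, EGFR, was called under osimertinib against untreated, 1, ERBB3, under osimertinib against T0 and 0 under erlotinib against T0. Of 17684 genes, 388 were called lower and 379 higher in the first of these comparisons, 1717 and 557 in the second and 1335 and 230 in the third. Counts of guides called also moved. From T0 to untreated, 11 became 6 with TMM over all guides, 6 with olfactory receptor guides and 5 with DESeq2 scaled over all guides. Of targeting guides, 20.1% were called lower in the main setting and 5.93% with TMM over all guides, where 4 of the 6 member guides were EGFR guides. Under erlotinib against T0, 3 became 0 with each of these and 1 with DESeq2 scaled on non-targeting guides. Under osimertinib against T0, 8 guides called lower became 0 with TMM over all guides, olfactory receptor guides or DESeq2 scaled over all guides, and 1 guide was called higher in each. With TMM over all guides, 5.38% of targeting guides were called lower under erlotinib against T0. Under osimertinib against T0, 8.99% were called lower and 4.57% higher with that scaling. Shares with olfactory receptor guides and DESeq2 were not counted. Under osimertinib against untreated, 1 became 2 with TMM over all guides and 2 with the replicate block. With TMM over all guides these were 1 higher and 1 lower, the latter ERBB2 guide 1.

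Leaving out each library gave 4 to 8 members called from T0 to untreated and 1 to 3 under osimertinib against untreated. The shares of all genes and guides called were not counted with a library left out or with the replicate block. The count under osimertinib was 1 without untreated replicate 2 or osimertinib replicate 2. Guides called ranged from 6 to 15 from T0 to untreated (6 without T0 replicate 1), from 0 to 3 under erlotinib against untreated (0 without either untreated library or erlotinib replicate 2), from 1 to 3 under osimertinib against untreated, from 0 to 7 under erlotinib against T0 (0 without T0 replicate 1) and from 2 to 10 under osimertinib against T0 (2 without T0 replicate 1). The sign of values near 0 turned for EGF against T0 in untreated (-0.014 to 0.043) and under erlotinib (-0.061 to 0.0020), for EREG against T0 under osimertinib (-0.18 to 0.060), and for TGFA against T0 under erlotinib (-0.095 to 0.028) and osimertinib (-0.030 to 0.075).

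Other signs turned as follows. With TMM over all guides, values against T0 were 0.010 for ERBB4 and 0.0045 for HBEGF in untreated, 0.046 for BTC, 0.14 for EGF, 0.045 for ERBB4, 0.035 for HBEGF and 0.13 for TGFA under erlotinib, and 0.023 for BTC, 0.13 for EGF, 0.079 for ERBB4 and 0.12 for EREG under osimertinib. With olfactory receptor guides they were 0.023 for BTC, 0.11 for EGF, 0.021 for ERBB4, 0.011 for HBEGF and 0.11 for TGFA under erlotinib, and 0.085 for EGF, 0.038 for ERBB4 and 0.078 for EREG under osimertinib. Relative to neighbours, TGFA was at 0.056 in untreated and 0.049 under erlotinib against T0 and at -0.0067 and -0.035 under erlotinib and osimertinib against untreated, EGF at 0.047 under erlotinib and EREG at 0.0098 under osimertinib against T0. The mean over guides gave EGF -0.046 from T0 to untreated and 0.0028 under erlotinib against untreated. Without a filter TGFA was at 0.0050 under erlotinib against T0. Of these, ERBB4 and TGFA from T0 to untreated had been called. For ERBB4 the turn follows from the scaling, which moves all genes up by 0.17, and for TGFA from the median of its neighbours, which is subtracted (-0.22).

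Replicate numbers did not pair the libraries, since deviations of same-numbered libraries had correlations of -0.004 to 0.016. With the replicate number as a block, 6 members were called from T0 to untreated in place of 7, as ERBB4 was lost (adjusted p = 0.0561), and no other member's call changed. Each group has 2 libraries, and against untreated the values of TGFA and EREG near 0.2 fell short of the threshold. Scarce guides such as EGFR guide 1 carry the largest errors.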
